A study of Mus musculus with 2 samples.

Results

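The NADPH oxidase of phagocytes was followed through the RNA of 5 of its subunits, Cybb, Cyba, Ncf1, Ncf4 and Rac2, among 32285 genes counted in single myeloid cells. The 5 genes were chosen by name for their place in the enzyme, with earlier results of these data known. Bone marrow of female C57BL/6 mice, wild type as far as the labels say and 10 weeks old, was grown for 4 days with 50 ng/mL of GM-CSF and as much IL-6 to give myeloid-derived suppressor cells (MDSCs). One culture condition (DAB) held 1.5 µM dabrafenib, an inhibitor of the kinase BRAF, and the other (DMSO) an equal volume of its solvent. Each condition was 1 library of 5′ single-cell RNA-seq, how many mice went into it was not given in the sources used here, and the cells are a culture model of MDSCs rather than cells taken from a tumor.

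This oxidase makes superoxide, the starting point of the respiratory burst with which neutrophils and monocytes kill microbes, and MDSCs are known to use its products against T cells. Cybb encodes gp91phox, the catalytic subunit that passes electrons from NADPH through the membrane to oxygen. Cyba encodes p22phox, and both proteins need each other to be stable as flavocytochrome b558. Ncf1 (p47phox, the organizer) and Ncf4 (p40phox, which binds a membrane lipid) wait in the cytosol until the cell is triggered. Rac2 is a small GTPase of blood cells that joins the complex and takes part in switching electron transfer on.

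On GRCm38 the genes lie on 4 chromosomes. Cybb (ENSMUSG00000015340) lies on chromosome X from 9435252 to 9487771, Cyba (ENSMUSG00000006519) on chromosome 8 from 122424776 to 122432930, and Ncf1 (ENSMUSG00000015950) on chromosome 5 from 134220053 to 134229625, all on the minus strand. Ncf4 (ENSMUSG00000071715) lies on the plus strand of chromosome 15 from 78244801 to 78262580. Rac2 (ENSMUSG00000033220) lies on the minus strand of the same chromosome from 78559167 to 78572783, 296.586 kb away, with 10 protein-coding genes between them, among them Csf2rb and Csf2rb2, which encode signalling chains of the GM-CSF receptor family. The annotation has a gene on the opposite strand over Cyba (Gm20388) and over Ncf1 (Gtf2ird2). Reads were counted with a Cell Ranger setting for 5′ libraries that fixes the strand counted. Rac2 is also a close paralog of Rac1, and how reads that fit both were counted is not given.

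The bases just before the start are shown for the 3 members with a RefSeq promoter entry (GRCm38.p6), because Cybb differed from its partners between the libraries. Each stretch ends at the base before the transcription start and is written 5′ to 3′ on the gene's strand. For Cybb the start used, 9469324, is that of 1 of 5 transcripts in the GENCODE annotation, with 3 of 5 starting within 100 bases of it. Another transcript starts 18.4 kb further upstream, at the end of the gene given above, and the bases before that start are not shown. For Cyba the start used, 122432940, is that of 0 of 3 annotated transcripts, with 3 of 3 starting within 100 bases of it. It lies just upstream of the end of Cyba given above. Capitals mark CCAAT, the letters bound by the factor NF-Y.
Cybb, chrX:9469325-9469474, minus strand: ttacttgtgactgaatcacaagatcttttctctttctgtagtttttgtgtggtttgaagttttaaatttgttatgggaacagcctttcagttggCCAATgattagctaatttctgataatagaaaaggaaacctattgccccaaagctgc
Cyba, chr8:122432941-122433090, minus strand: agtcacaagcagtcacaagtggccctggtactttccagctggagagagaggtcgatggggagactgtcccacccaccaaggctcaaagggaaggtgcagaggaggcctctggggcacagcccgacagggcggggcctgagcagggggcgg
Ncf1, chr5:134229626-134229775, minus strand: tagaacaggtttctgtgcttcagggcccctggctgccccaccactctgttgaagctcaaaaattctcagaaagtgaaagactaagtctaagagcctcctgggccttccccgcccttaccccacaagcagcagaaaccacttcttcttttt
The 3 stretches differ in base composition: 35.3% of the Cybb bases were G or C, against 64.7% for Cyba and 50.7% for Ncf1.

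Windows of 300 bases, 250 before and 50 after the start, were searched on both strands for CCAAT, for GAGGAA (the core letters of sites of PU.1), for GGAANNGAA (letters of joint sites of PU.1 and interferon regulatory factors) and for TTGCNNAA (letters of C/EBP sites). The motifs were picked after the sequences had been seen. In Cybb, CCAAT began 56 bases before the start, GGAANNGAA matched the opposite strand as TTCATTTCC from base 5 after the start, and GAGGAA matched it as TTCCTC from base 10, overlapping the former. The windows of Cyba and Ncf1 held none of the 4 strings of letters. Of 32851 such promoter windows, 37.4% held CCAAT, 28.3% GAGGAA, 8.24% GGAANNGAA and 10.8% TTGCNNAA, so a match by itself is common.

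After removal of barcodes with over 10% mitochondrial UMIs and of likely doublets, 9032 DMSO cells with 92409383 UMIs and 10476 DAB cells with 141281712 UMIs were compared. A UMI (unique molecular identifier) stands for 1 captured RNA molecule. The median cell held 7539.5 UMIs in DMSO and 9569.5 in DAB. Itgam, which encodes the general myeloid marker CD11b, was detected in 81.7% of the DMSO cells and 84.2% of the DAB cells. Ly6c2 was detected in 44.2% and 50.5%, and Ly6g in 21.9% and 16.0%. The B cell gene Cd79a was detected in 1.86% and 2.30%. These shares were taken at the full, unequal depth of the cells, so no difference between the libraries is read from them. The libraries shared 152 barcodes, and 139 DMSO and 134 DAB cells carried one of them.

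Levels are UMIs summed over cells and divided by all UMIs of the same cells (CPM, counts per 1000000 UMIs), with exact Poisson 95% intervals. Log2 ratios are DAB over DMSO with exact 95% intervals. All intervals, those of shares included, cover only the error of counting. Because a condition is 1 library, there is no spread between replicates and no test, and a gene is called higher or lower only by a rule of size: a log2 ratio of at least 0.5 in either direction whose interval leaves out 0, among genes that reach 20 CPM in either library. Over all cells, 5890 genes were measured at that level, of which 11.6% were called higher and 11.4% lower.

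Cybb was the single member called in either direction over all cells, and it was lower. Its level was 259 CPM (95% interval 255 to 262; 23900 UMIs) in DMSO and 106 CPM (104 to 107; 14918 UMIs) in DAB. The log2 ratio was -1.29 (-1.32 to -1.26), a level 0.408 times that of DMSO. A DAB cell held a mean of 13486 UMIs of all genes, against 10231 in DMSO. The mean Cybb count fell from 2.65 UMIs per cell in DMSO to 1.42 in DAB. UMIs per cell also depend on sequencing depth and on the mix of cells. The mean of all UMIs per cell also differed within classes named below. It rose from 3177 in DMSO to 3682 in DAB in mature PMN-like cells and from 6856 to 10556.5 in intermediate granulocyte-like cells. Chemokine-high cells went from 5565 to 7627, progenitor-like cells from 19366 to 28326 and mature monocyte-like cells from 19978 to 30362. The mean fell in immature monocyte-like cells, from 16758 to 16170, and in activated dendritic cell-like cells, from 18280 to 17183. Cybb went from the 483rd most abundant of 21190 detected genes to the 1240th of 21800.

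Its partner Cyba had the most UMIs of the 5 members and moved the other way. Cyba was at 1478 CPM (1471 to 1486) in DMSO and 1887 CPM (1880 to 1894) in DAB, with a log2 ratio of 0.35 (0.34 to 0.36). That interval lies above 0 but the ratio is below the size the rule asks for, so Cyba is not called. There were 5.72 Cyba UMIs for each Cybb UMI in DMSO (5.64 to 5.80) and 17.9 in DAB (17.6 to 18.2). Capture can differ between genes, so only the change in this ratio is read, not its value.

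The cytosolic subunits and the GTPase also had ratios above 0 and below the size of a call. Ncf1 was at 223 CPM in DMSO and 259 CPM in DAB (log2 ratio 0.22, 0.19 to 0.24). Ncf4 was at 243 CPM and 331 CPM (0.44, 0.42 to 0.46). Rac2 was at 562 CPM and 746 CPM (0.41, 0.40 to 0.43). The median log2 ratio of the 5 members was 0.35, beside 0.01 over the 5890 genes.

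**Figure D1:**
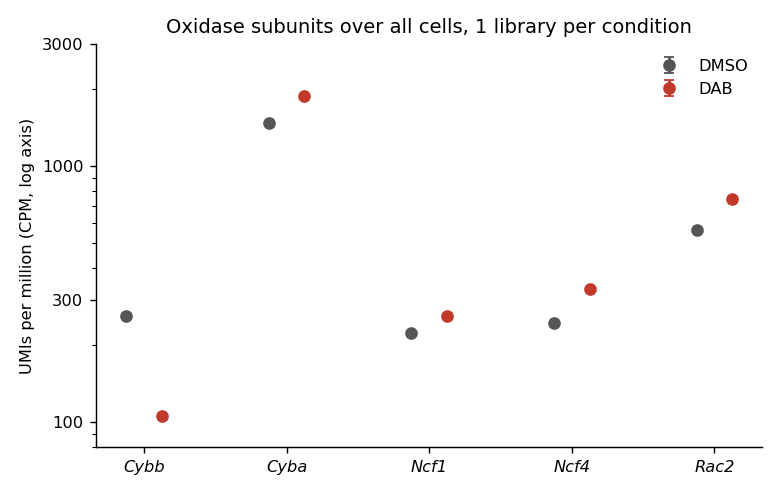
Level of each subunit over all cells (CPM, log axis), with 1 point for each library and exact Poisson 95% intervals that are mostly smaller than the points. Cybb falls from 259 to 106 CPM, and the other 4 subunits lie higher in DAB by log2 ratios of 0.22 to 0.44.

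The mix of cells differed between the libraries, and its part in the Cybb difference was not tested. When both libraries were given the same shares of each cluster, the log2 ratio of Cybb was -0.87, and those of Cyba, Ncf1, Ncf4 and Rac2 were 0.30, 0.35, 0.38 and 0.39. The clusters had been formed without the members and without the genes of the pathway lists. The summed level of 10 marker genes of the intermediate granulocyte, the cell richest in Cybb here, was 11199 CPM in DMSO and 6067 CPM in DAB, with no marker at 0 in either library. This sum does not measure the share of these cells alone. Inside the cells named intermediate granulocyte-like below it also fell, from 54204 to 32650 CPM. Single markers differed over all cells: Ly6g went from 142 to 104 CPM and Cebpe from 46.0 to 76.7 CPM.

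Of 28 clusters, 13 received a class name from markers and 15 did not, with 46.4% of DMSO and 45.8% of DAB cells in the latter. Names carry "-like" because they rest on marker genes alone. In 6 classes there were at least 200 cells of each library. These were granulocyte progenitor-like (228 DMSO and 282 DAB cells, led by Elane, Prtn3 and Ctsg), intermediate granulocyte-like (1591 and 649, led by S100a9, Ly6g, Camp and Ltf), mature PMN-like (553 and 1542, Csf3r and Mmp9), chemokine-high granulocyte-like (343 and 1683, Cxcl2, Cxcl3 and Ccl3), immature monocyte-like (1086 and 371, Mmp12, Nos2 and Arg1) and mature monocyte-like cells (416 and 656, H2-Eb1, H2-Ab1 and H2-Aa). PMN stands for polymorphonuclear cell. Macrophage-like (102 and 67), activated dendritic cell-like (308 and 129), basophil or mast cell-like (70 and 110) and B cell-like (141 and 187) clusters were smaller. The chemokine-high class joined cluster 6, led by Cxcl3 and Cxcl2, and cluster 11, led by Ccl3, Atp6v0d2 and Mpeg1. Its 5 chemokine markers summed to 13462 CPM in DMSO and 14787 CPM in DAB in cluster 11. In macrophage-like cells they summed to 14648 and 17244 CPM, so these markers are not particular to that class. The marker lists of plasmacytoid dendritic cells, eosinophils, erythroid cells, early progenitors and T or NK cells named no cluster.

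Cybb had the widest range over the classes. In DMSO it was highest in intermediate granulocyte-like cells at 703 CPM (687 to 719), then in mature PMN-like cells at 275 CPM (251 to 301). Immature monocyte-like cells followed at 227 CPM (220 to 234), chemokine-high granulocyte-like cells at 207 CPM (188 to 229) and progenitor-like cells at 179 CPM (167 to 192). Immature monocyte-like and chemokine-high cells did not differ beyond their intervals, nor did chemokine-high and progenitor-like cells. Mature monocyte-like cells were lowest at 59.6 CPM (54.4 to 65.0), and the highest class was 11.8 times that.

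In DAB the 6 classes kept this order at lower levels: 293 CPM (280 to 306) in intermediate granulocyte-like, 182 (171 to 194) in mature PMN-like, 132 (123 to 142) in immature monocyte-like, 92.9 (87.7 to 98.3) in chemokine-high, 46.6 (42.0 to 51.6) in progenitor-like cells. Mature monocyte-like cells came last with 43.2 CPM (40.4 to 46.2). The last of these pairs overlapped. The range from highest to lowest class shrank to 6.77 times.

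Within classes, Cybb was called lower in 5 of 6. The fall was largest in granulocyte progenitor-like cells, with a log2 ratio of -1.94 (-2.12 to -1.76), from 790 UMIs in 228 cells to 372 UMIs in 282 cells. There 16.9% of 6164 genes were called lower and 15.2% higher. Under 7 alternatives this ratio ran from -2.19 to -1.49, and 3 of them left its interval. At Leiden resolution 1.5 the named cluster held 75 DMSO and 95 DAB cells. The summed markers of the class also fell, from 4787 to 3132 CPM, and their part in the ratio was not tested. Intermediate granulocyte-like cells had a log2 ratio of -1.27 (-1.34 to -1.19), beside 13.9% of genes lower and 20.4% higher, and chemokine-high cells -1.16 (-1.32 to -0.99), beside 14.1% lower and 10.5% higher. In the main setting the falls in these 3 classes were each more than 1 log2 unit. Under 8 alternatives the chemokine-high ratio ran from -1.18 to -0.73, and the intermediate granulocyte-like ratio from -1.58 to -1.14. Counted as UMIs per cell, the log2 ratios were -1.39 in progenitor-like, -0.64 in intermediate granulocyte-like and -0.70 in chemokine-high cells.

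The other classes gave smaller Cybb ratios. Immature monocyte-like cells had -0.78 (-0.89 to -0.67), beside 16.4% of genes lower and 10.4% higher. Mature PMN-like cells had -0.59 (-0.75 to -0.44), beside 8.97% lower and 13.2% higher. Mature monocyte-like cells had -0.46 (-0.62 to -0.30), which is not called, beside 17.9% lower and 17% higher. Under 8 alternatives this ratio ran from -0.79 to -0.42, so it reached the size of a call in some settings, and 1 left its interval. Counted per cell, Cybb rose there from 1.19 UMIs in DMSO to 1.31 in DAB, while all UMIs per cell went from 19978 to 30362. The mature PMN-like ratio was smaller in size than 0.5 at Leiden resolution 0.5 (-0.38) and without doublet removal (-0.42). The same held without the treatment-responsive genes in the clustering (-0.44). The immature monocyte-like ratio was smaller than 0.5 in size without alignment of the libraries (-0.24). In that setting the class held 1342 DMSO cells but only 53 DAB cells.

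**Figure D2:**
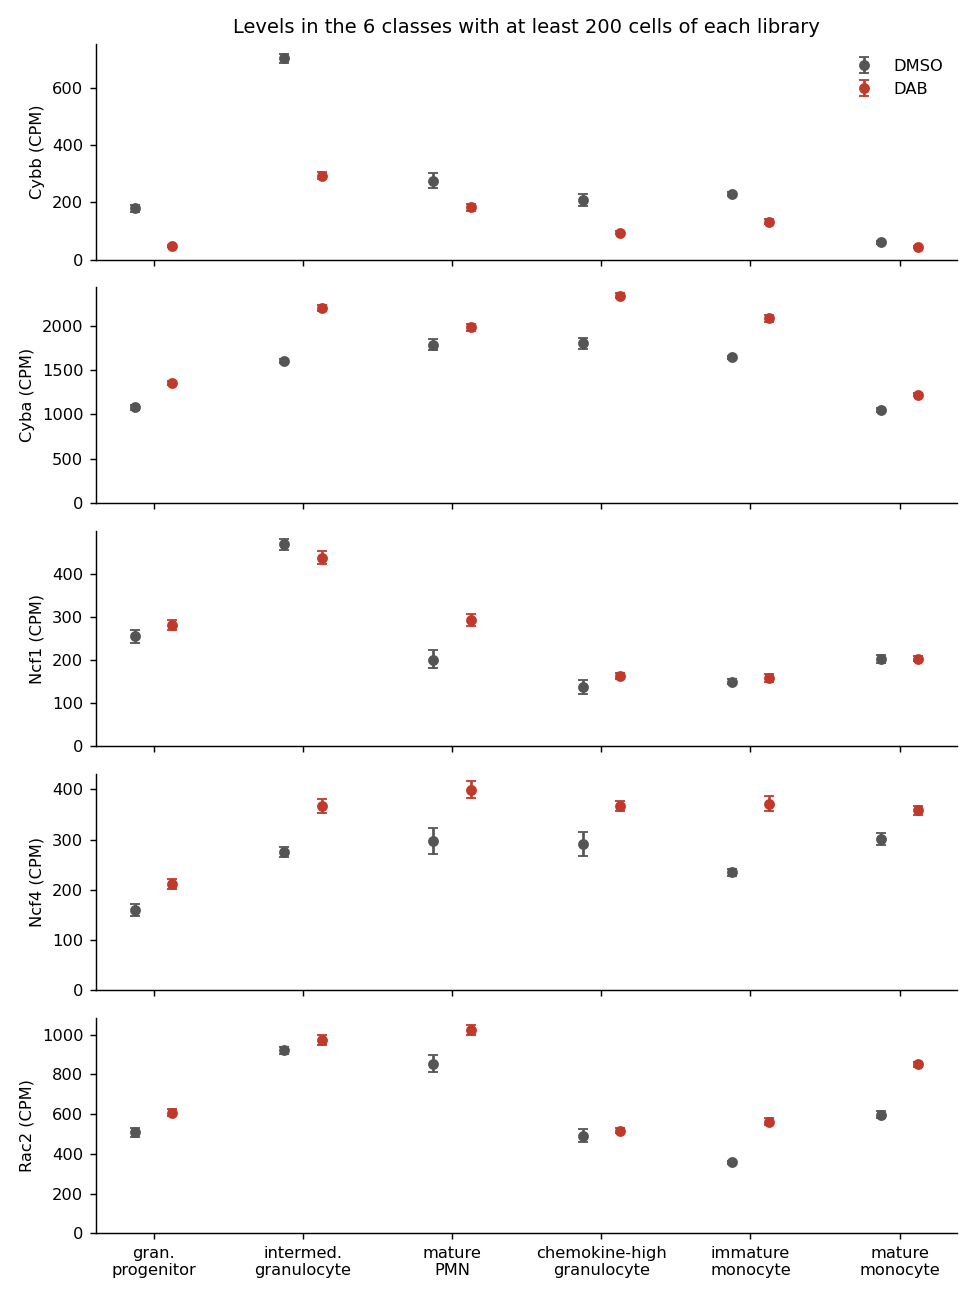
Level of each subunit (CPM, from 0) in the 6 classes, with 1 point for each library and exact Poisson 95% intervals. Cybb stands out in DMSO intermediate granulocyte-like cells at 703 CPM and is lower in DAB in every class drawn, while Cyba and Ncf4 are higher in DAB in every class drawn.

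Some classes joined clusters of unlike makeup, so the ratios were also taken inside single clusters. The intermediate class held cluster 9 (831 DMSO and 199 DAB cells), led by Camp, Ltf and Ngp of the secondary granules, and cluster 4 (760 and 450), led by S100a9 and Ly6g. In cluster 9 Cybb reached its highest level of any cluster, 1033 CPM (1008 to 1058) in DMSO and 478 CPM (453 to 504) in DAB, with a log2 ratio of -1.11 (-1.20 to -1.03). In cluster 4 it was 236 and 161 CPM (-0.56, -0.70 to -0.41). The class ratio of -1.27 was thus larger than that of either cluster. The summed markers of the class also fell inside both, from 74855 to 52554 CPM in cluster 9 and from 24989 to 18494 CPM in cluster 4, and their part in the Cybb ratios was not tested.

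The mature PMN-like class split as well. Its cluster 3 (359 DMSO and 881 DAB cells) was called lower, from 301 CPM (267 to 339) to 150 CPM (136 to 166), with the log2 ratio between -1.23 and -0.78. Its cluster 12 (194 and 661 cells) had -0.23, with an interval from -0.46 to 0.00, at 247 and 210 CPM. Of these clusters, cluster 3 alone met the rule for a call. The part of each in the class ratio was not tested. In the chemokine-high class cluster 6 had -1.28 (-1.47 to -1.08) and cluster 11 had -0.83 (-1.15 to -0.50).

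There were 25 clusters of 50 or more cells in both libraries, of which 24 had more than 3 Cybb UMIs in both. Cybb was called lower in 20 of these 24 and higher in 0, with a median log2 ratio of -0.81. Pooled over the 25 clusters, 13.7% of the measured genes were called lower and 12.8% higher, and single clusters ran from 8.30% to 20.3% lower and from 5.95% to 26.2% higher. The exceptions were mature monocyte-like cells, cluster 12 of the mature PMN-like class, the unnamed cluster 23 (64.3 and 54.9 CPM) and B cell-like cells. Clusters 5 and 4 were the called clusters with the smallest falls, -0.52 and -0.56. None of the other 4 members was called lower in any of the 25 clusters, while Cyba was called higher in 1, Ncf1 in 3, Rac2 in 4 and Ncf4 in 5, shares on either side of that background. Medians over the clusters were 0.34 for Cyba, 0.25 for Ncf1, 0.34 for Ncf4 and 0.22 for Rac2.

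**Figure D3:**
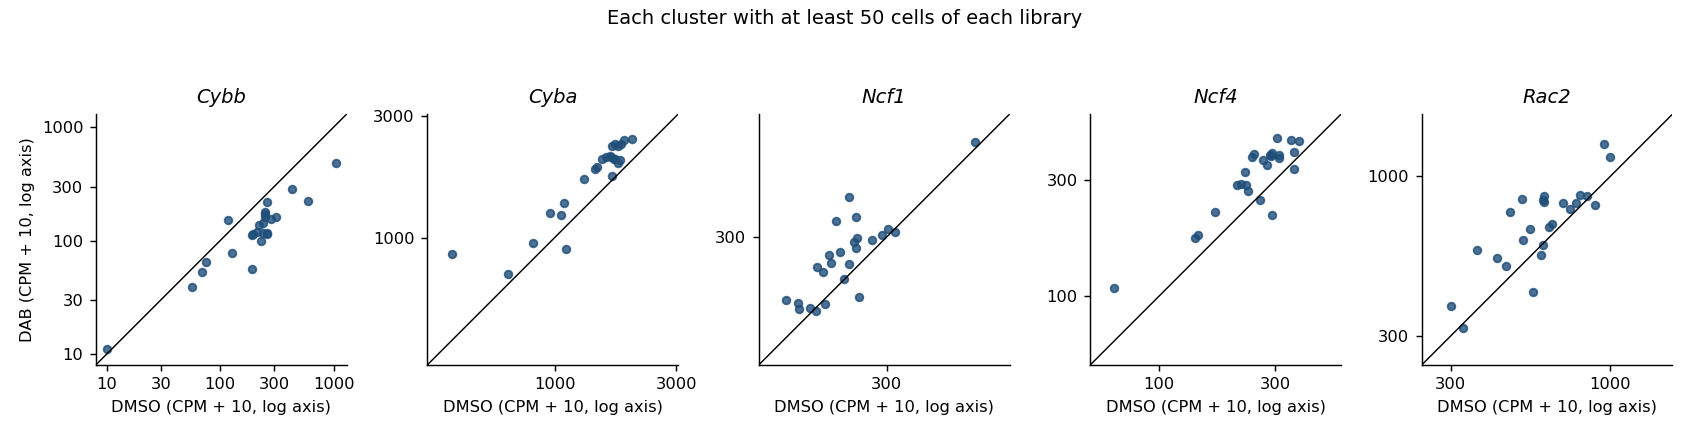
Each point is 1 of the 25 clusters of 50 or more cells in both libraries, drawn at its DMSO (horizontal) and DAB (vertical) level as CPM + 10 on log axes, with the line of equal levels. For Cybb the points lie below the line apart from B cell-like cells and the basophil or mast cell-like cluster near 0, and for Cyba 24 of 25 points lie above it.

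Cells outside the granulocyte and monocyte classes gave the range of Cybb. Basophil or mast cell-like cells had 0 Cybb UMIs in 70 DMSO cells, with an upper interval bound of 8.21 CPM, and 1 UMI in 110 DAB cells. Every class level of Cybb given above lay over that bound. The bound rests on 70 cells, and free RNA of Cybb in the droplets was not tested. Macrophage-like cells were at 424 CPM in DMSO and 275 CPM in DAB (log2 ratio -0.63, -0.90 to -0.36), and activated dendritic cell-like cells at 46.2 and 28.9 CPM (-0.68, -1.10 to -0.28). B cell-like cells had 107 CPM (84.1 to 135) and 142 CPM (120 to 168), a log2 ratio of 0.41 with an interval that held 0 (-0.01 to 0.83).

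Shares of cells told the same direction at equal depth. A random draw of 1500 UMIs was kept from each cell, and the 436 DMSO and 289 DAB cells that held fewer were set aside. Cybb was then detected in 27.8% (26.8 to 28.7) of the DMSO cells and in 14.7% (14.0 to 15.4) of the DAB cells. Without thinning the shares were 62.5% and 48.5%. In basophil or mast cell-like cells the thinned share was 0 of 65 DMSO cells (upper bound 5.52%) and 0 of 103 DAB cells (3.52%), at median depths of 5923 and 7110 UMIs before thinning, beside 8032 and 9988 for all cells. Of intermediate granulocyte-like cells, 47.6% were positive for Cybb in DMSO and 27.0% in DAB, and of progenitor-like cells 19.1% and 6.43%. The interval in DAB progenitor-like cells (3.85 to 9.97) lay above the DAB bound of basophil or mast cell-like cells, 3.52%, and reached below their DMSO bound, 5.52%. Both bounds rest on few cells.

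Over all cells the shares of the other members did not fall. At equal depth Cyba was detected in 83.3% of the DMSO cells and 88.4% of the DAB cells, Rac2 in 56.7% and 62.7%, Ncf4 in 28.9% and 38.7%, and Ncf1 in 27.3% and 29.8%. Some fell within classes. In intermediate granulocyte-like cells Ncf1 went from 45.7% (43.2 to 48.3) to 38.9% (35.1 to 42.8). In activated dendritic cell-like cells Rac2 went from 51.2% to 29.8%, with intervals apart, and Ncf4 from 30.4% to 17.7%, with intervals that overlapped.

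At 1500 UMIs, a cell held UMIs of a mean of 2.24 of the 5 members in DMSO and 2.34 in DAB. All 5 together were seen in 1.91% (1.63 to 2.22) of the cells of DMSO and 1.44% (1.22 to 1.69) of those of DAB. Of intermediate granulocyte-like cells, 6.27% (5.10 to 7.61) held the full set in DMSO and 3.72% (2.40 to 5.49) in DAB. Mature PMN-like cells held it in 1.83% (0.84 to 3.44) and 2.93% (2.13 to 3.92). The intervals of these classes were apart in DMSO and overlapped in DAB.

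Cyba was spread far more evenly than Cybb. In DMSO it ran from 1050 CPM in mature monocyte-like to 1798 CPM in chemokine-high cells, a range of 1.71 times. Chemokine-high and mature PMN-like cells (1782) did not differ beyond their intervals, nor did immature monocyte-like (1640) and intermediate granulocyte-like cells (1603), nor progenitor-like (1079) and mature monocyte-like cells. In DAB all 6 lay in separate intervals, from 1221 CPM in mature monocyte-like to 2336 CPM in chemokine-high cells. The log2 ratio was above 0 with its interval in all 6 classes, from 0.15 in mature PMN-like to 0.45 in intermediate granulocyte-like cells, and called in none.

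The count of Cyba per Cybb UMI therefore widened in each of the 6 classes. It went from 2.28 in DMSO to 7.51 in DAB in intermediate granulocyte-like cells, from 6.03 to 29.1 in progenitor-like cells and from 8.67 to 25.2 in chemokine-high cells. The mature PMN-like class went from 6.48 to 10.9, the immature monocyte-like class from 7.22 to 15.8 and the mature monocyte-like class from 17.6 to 28.2. The intervals of the libraries were apart in each class. In B cell-like cells the ratio was 6.04 (4.71 to 7.85) and 5.00 (4.18 to 6.02), which overlapped.

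Ncf1, the organizer, was highest in intermediate granulocyte-like cells in both libraries. In DMSO it reached 469 CPM (456 to 482) there, followed by progenitor-like cells at 256 CPM and by mature monocyte-like (203) and mature PMN-like cells (201), which overlapped. Immature monocyte-like (151) and chemokine-high cells (137) were lowest and overlapped. Its highest cluster was the Camp- and Ltf-rich cluster 9, as for Cybb, at 604 CPM in DMSO and 641 CPM in DAB. Ncf1 there had a log2 ratio of 0.09 (0.00 to 0.17) while Cybb had -1.11.

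In DAB, Ncf1 was called higher in mature PMN-like cells, from 201 CPM (181 to 224) to 292 CPM (278 to 307), a log2 ratio of 0.54 (0.37 to 0.71). Its ratio there was 0.50 with scaling by the median of ratios and 0.4998 without alignment, at the limit of the rule. Mature PMN-like and progenitor-like cells (282 CPM) then overlapped in level. In intermediate granulocyte-like cells the ratio was -0.10 (-0.16 to -0.03). In immature and mature monocyte-like cells the intervals held 0, with ratios of 0.08 and 0.01. Under 7 alternatives the immature monocyte-like ratio ran from -0.03 to 0.72, and 1 of them left its interval.

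Over the 6 classes Ncf4 was more even than Ncf1, with a range of 1.89 times in each library, against 3.43 times in DMSO and 2.76 times in DAB. Over the 25 clusters it was not, with 6.54 times in DMSO and 4.44 times in DAB for Ncf4, against 4.92 and 4.16 times for Ncf1. In DMSO mature monocyte-like (301 CPM), mature PMN-like (297), chemokine-high (290) and intermediate granulocyte-like cells (276) each overlapped with the next, and progenitor-like cells were lowest at 159 CPM. In DAB the 5 classes other than progenitor-like cells lay between 358 and 400 CPM, each overlapping the next, with progenitor-like cells at 212 CPM. The log2 ratio was above 0 with its interval in all 6 classes, from 0.25 to 0.66. It was called in immature monocyte-like cells, from 235 CPM (228 to 242) to 372 CPM (357 to 388), a log2 ratio of 0.66 (0.59 to 0.74).

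Rac2 was highest in intermediate granulocyte-like and mature PMN-like cells in both libraries. In DMSO it was at 921 CPM in intermediate granulocyte-like and 854 CPM in mature PMN-like cells, then 598 in mature monocyte-like cells, 508 in progenitor-like and 492 in chemokine-high cells, which overlapped, and 357 in immature monocyte-like cells. In DAB mature PMN-like (1023) and intermediate granulocyte-like cells (974) led and overlapped, and chemokine-high cells were lowest at 518 CPM. Rac2 was called higher in both monocyte classes. Immature monocyte-like cells went from 357 CPM (348 to 366) to 563 CPM (544 to 582), a log2 ratio of 0.66 (0.60 to 0.72). Without alignment of the libraries, with only 53 DAB cells in the class, this ratio was 0.18. Mature monocyte-like cells went from 598 CPM (582 to 615) to 851 CPM (838 to 864), a ratio of 0.51 (0.46 to 0.56), and 5 of 8 alternatives gave 0.45 to 0.50.

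**Figure D4:**
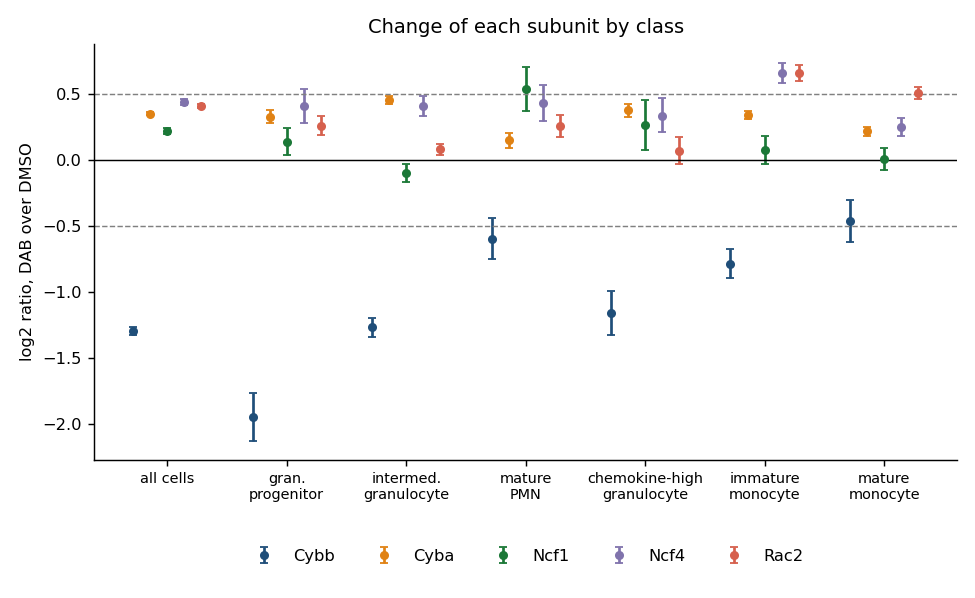
Log2 ratio of DAB over DMSO for each subunit over all cells and in the 6 classes, with exact 95% intervals, a solid line at 0 and dashed lines at the 0.5 limits of the call rule. Cybb lies below 0 in every column, from -1.94 to -0.46, and apart from Ncf1 in intermediate granulocyte-like cells (-0.10) no other point lies below 0.

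Activated dendritic cell-like cells, with 308 DMSO and 129 DAB cells, were the class in which 4 members were lower in DAB. Cyba went from 1095 to 890 CPM (log2 ratio -0.30, -0.37 to -0.23), Ncf4 from 280 to 206 CPM (-0.44, -0.60 to -0.29) and Rac2 from 549 to 409 CPM (-0.43, -0.53 to -0.32), with Cybb at -0.68. Ncf1 went from 161 to 226 CPM (0.49, 0.33 to 0.65). Of these, the Cybb ratio alone passed the size of a call. The makeup of this class differed between the libraries. At Leiden resolution 1.5 a cluster of 168 DMSO and 103 DAB cells carried the name. Beside it stood an unnamed cluster of 139 DMSO and 18 DAB cells, led by Ccl17, Plet1 and Timp1. Immature monocyte markers summed to 5771 CPM in DMSO and 1807 CPM in DAB within the class. Their part in the ratios was not tested, and ratios of this class were not run under the alternatives.

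The wider pathway was covered by 95 genes in 9 lists. Of these genes, 75 were measured at 20 CPM or more, of which 6 (8.0%) were called higher and 4 (5.33%) lower, beside 11.6% and 11.4% of all genes. Their median log2 ratio was -0.01, beside 0.01 over all genes, with genes on both sides of 0. A list had 2 to 14 measured genes, too few for a count of 1 or 2 calls to set it apart from these shares. Rac1, the broadly expressed relative of Rac2, was at 364 CPM in DMSO and 367 CPM in DAB (log2 ratio 0.01, -0.01 to 0.03). Nox1 had 131 and 175 UMIs over all the cells compared, and Nox4 had 1 and 1. Cybb was thus the catalytic subunit with nearly all the UMIs among the Nox and Duox genes counted.

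Cybc1 and Nrros, listed together as chaperones of the flavocytochrome, were both measured, and 1 was called. By its reported role, given below, Nrros is not a chaperone, so the heading of the list holds for Cybc1 alone. Cybc1, which encodes the endoplasmic reticulum protein Eros that the gp91phox protein needs, was at 27.7 and 27.5 CPM (log2 ratio -0.01, -0.08 to 0.06). Nrros, a leucine-rich protein of the endoplasmic reticulum reported to promote the breakdown of gp91phox, was called higher, from 116 to 166 CPM (0.52, 0.49 to 0.55). It was called higher in intermediate granulocyte-like (0.72), mature monocyte-like (0.71) and progenitor-like cells (0.55), and lay lower in mature PMN-like cells (-0.38, -0.57 to -0.18).

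Of 9 exchange factors and GTPase partners measured, 1 was called. This was Dock2, a Rac activator of leukocytes, higher at 0.58 (122 to 183 CPM). Of 12 activating kinases, Akt1 (0.57, 64.3 to 95.4 CPM) and Pak1 (0.52, 16.2 to 23.3 CPM), both able to phosphorylate p47phox, were called higher and none lower. Of 12 genes measured in the list headed receptors that trigger the burst, 1 was called in each direction. Fcgr1, the high-affinity Fc receptor, rose from 12.2 to 25.8 CPM (1.09, 0.99 to 1.19). Fpr2, a formyl peptide receptor, fell from 37.0 to 22.4 CPM (-0.72). The heading is a label and does not mean that each listed gene by itself triggers the burst. The 2 genes of charge compensation measured were not called.

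Of 12 transcription factors measured, Cebpe was called higher and Irf8 lower. Irf8, known to act with PU.1 at the promoter of Cybb, went from 52.9 to 24.5 CPM (log2 ratio -1.11, -1.17 to -1.05). By class it was called lower in progenitor-like (-2.58, -3.10 to -2.08), chemokine-high (-1.34), mature monocyte-like (-1.15) and immature monocyte-like cells (-1.11). In intermediate granulocyte-like cells Irf8 was at 2.48 and 1.31 CPM, and in mature PMN-like cells at 1.14 and 3.35 CPM, too low for a call. Any link between Irf8 and the Cybb ratios was not tested. Cebpe, the factor of granulocyte maturation, was at 46.0 and 76.7 CPM (0.74, 0.69 to 0.79), with 155 and 157 CPM in intermediate granulocyte-like cells. It is also among the markers that named that class, so its high level there is not independent of the name. Spi1, which encodes PU.1, was at 298 and 409 CPM (0.46, 0.43 to 0.48), not called.

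The last lists hold enzymes on either side of the reaction. Of 10 genes measured in the list headed NADPH supply, Me2, a mitochondrial malic enzyme, was called lower from 42.2 to 24.6 CPM (-0.78). The heading is a label and does not mean that each gene, Me2 included, itself makes NADPH. Of 14 genes that remove superoxide and peroxide, Prdx1, a peroxiredoxin, was called lower from 793 to 546 CPM (-0.54). No gene of either list was called higher, and with 11.4% of all genes lower and 11.6% higher nothing is read from these counts.

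**Figure D5:**
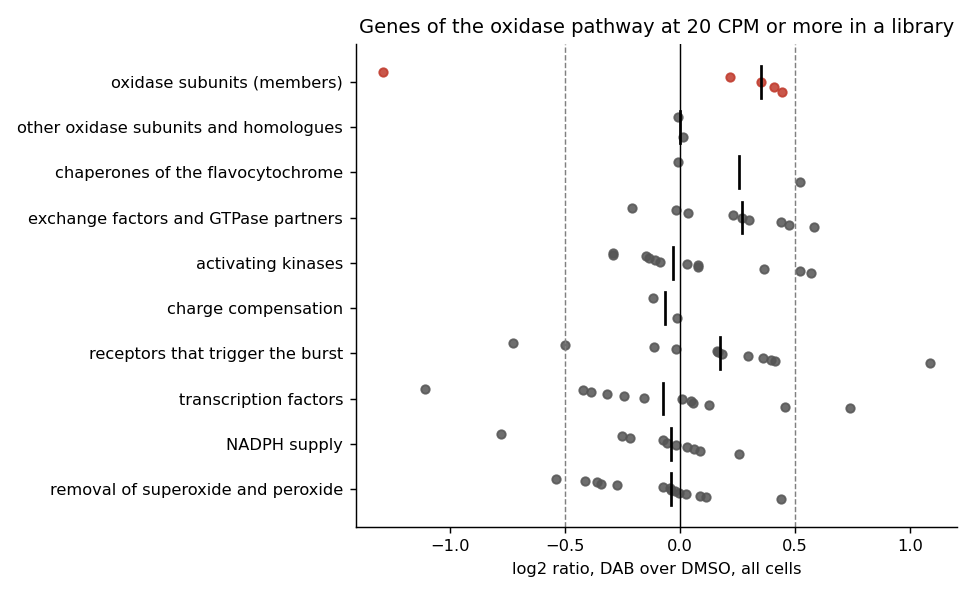
Log2 ratio of DAB over DMSO over all cells for each gene of the pathway lists measured at 20 CPM or more in a library, 1 row per list, with a short bar at the list's median and dashed lines at the 0.5 limits. Cybb at -1.29 is the lowest point drawn, followed by Irf8 at -1.11, and Fcgr1 at 1.09 is the highest. The row headed chaperones holds Cybc1 and Nrros, of which Nrros is not a chaperone.

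The members' patterns over clusters were compared by Pearson's r of log2(CPM + 10) over 52 points, each a cluster in 1 library with at least 50 cells. The points share libraries and depth, so r is a description. Both libraries are pooled, so r also holds the difference between them. Cyba and Ncf4 were the most alike pair of members, at 0.78, and Ncf4 had Cyba as its second most similar of 5889 genes. Ncf1 and Rac2 had 0.46, Cybb and Cyba 0.43, Cybb and Ncf4 0.26, and Cybb and Rac2 -0.18. With 1 CPM added instead of 10, Cybb and Cyba had 0.51, Ncf1 and Rac2 0.46, Cybb and Ncf4 0.41, and Cybb and Rac2 -0.19. The choice of points also changed the order of the pairs. Over 12 points, the 6 classes in each library, Ncf1 and Rac2 were the most alike pair at 0.71, Cyba and Ncf4 had 0.62, and Cyba was 210th in likeness to Ncf4. The highest r of Cybb with another member was 0.43 over the clusters (0.51 with 1 CPM added) and 0.40 over the classes.

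The genes most like each member differed from member to member. For Cybb they were Heatr6 (0.82), Dram1 (0.80), a lysosomal membrane protein, and Cemip2 (0.76), and with 1 CPM added instead of 10 they were Abca3, Unc93b1 and Heatr6. For Cyba they were 1110008P14Rik (0.87), Plaur (0.86), the urokinase receptor, and Ywhab (0.85). For Ncf1 they were Vasp (0.80), an actin regulator, Arhgap4 (0.79) and Adpgk (0.74). For Ncf4 they were Capg (0.79), an actin-capping protein, Cyba (0.78) and Bcl2a1b (0.78). For Rac2 they were Pdlim2 (0.84), Arhgdib (0.75) and Coro1a (0.72), a coronin of leukocytes. Over the 12 class points each member shared 0 of its 3 most similar genes with those named here, and for Cybb they were Flot2 (0.93), Fry (0.92) and Inpp4a (0.92). No member had Cybb among its 3 most similar genes over clusters or classes.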

How the data were processed

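Counts were deposited by the authors as raw UMI counts per gene and barcode, made with Cell Ranger 7.0.0 on mm10 per the labels, with no normalization. Barcodes with over 10% mitochondrial UMIs (55 DMSO, 89 DAB) and the highest simulated-doublet scores at 0.8% per 1000 cells (768, 1066) were removed. A limit of 4 median absolute deviations removed 0. Pearson residuals (theta 100) of 3000 variable genes, without members and pathway genes, had cell cycle and mitochondrial scores regressed out. They gave 40 principal components, aligned by mutual nearest neighbours (k = 20) and clustered with Leiden at resolution 0.9, seed 1. Clusters were named from 15 marker lists. The naming rule, in which progenitor names need no S100a8 or Csf3r, was written with the clusters in view. A class needed 200 cells of each library for its ratios to be called.

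Members and lists were chosen with earlier results of these data known. Genes named were the members, Rac1, Cybc1 and Nrros, the 2 largest called ratios of each pathway list in each direction, and the 3 genes most like each member. Spi1, Nox1, Nox4, Csf2rb and Csf2rb2 were added after their values were seen. Clec7a was not analysed here, and 1 gene that the rule names is not reported here. Gene positions are those of the GRCm38 annotation (GENCODE). The interval step was tested on simulated data. Software versions were leidenalg 0.10.2, igraph 0.11.9, scikit-learn 1.9.0, scipy 1.17.1, numpy 2.4.6 and Python 3.11.15.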

Additional observations from a re-analysis of the deposited data

Results flagged for a closer look

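A few classes moved against the others in a member whose intervals left out 0 on both sides of 0. These differences between classes were not tested, since each class has 1 library per condition. In activated dendritic cell-like cells Cyba had a log2 ratio of -0.30, while 8 of 10 named classes lay above 0. In the same cells Ncf4 had -0.44 and Rac2 -0.43, while 7 of 10 classes lay above 0 for each. The makeup of that class also differed between the libraries, as given above. Ncf1 had -0.10 in intermediate granulocyte-like cells and -0.39 in basophil or mast cell-like cells, while 5 of 10 classes lay above 0.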

How the results depend on the processing

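No paired analysis was possible because there is 1 library per condition, and no replicate could be left out. Over all cells, 6 alternatives kept the sign of all 5 members' ratios, with Cybb from -1.30 to -0.87. With equal shares of clusters the log2 ratios were -0.87 for Cybb, 0.30 for Cyba, 0.35 for Ncf1, 0.38 for Ncf4 and 0.39 for Rac2. As a mean over cells they were 0.38 for Cyba, 0.066 for Ncf1, 0.47 for Ncf4 and 0.26 for Rac2, and with the median of ratios, which shifts all genes by 0.01, Cyba was 0.34. Leaving out the shared barcodes, keeping doublets or keeping every barcode moved no member beyond its interval. The share of cells with all 5 members was 8.69% in DMSO and 7.15% in DAB after thinning to 3000 UMIs, and 38.9% and 38.2% without thinning. Genes called higher and lower (681 and 672 of 5890) became 1158 and 1258 of 9639 with a minimum of 5 CPM, and 2326 and 2937 of 22942 with none. Of 230 class ratios under alternatives, 176 stayed within their interval and 54 moved out of it, and all 46 of Cybb stayed below 0. At Leiden resolution 0.5 no progenitor-like or immature monocyte-like class of 50 cells in each library could be formed. The cause of these changes was not tested beyond what each alternative alters. Depth limits Cybb in basophil or mast cell-like cells and the shares of cells with all 5 members.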
